A study of Mus musculus with 20 samples.

Results

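The cytosolic ribosome is built from a large and a small subunit, and each subunit is a core of ribosomal RNA coated by proteins that are encoded by single genes scattered over the genome. These genes are among the most abundantly transcribed of any cell, and most of their mRNAs start with a run of pyrimidines, the 5′ terminal oligopyrimidine (TOP) motif, through which the kinase mTOR and the RNA-binding protein Larp1 control their translation and stability. In macrophages, activation diverts transcription to cytokines and other response genes while protein synthesis has to continue. The genes described here are those whose symbol marks a cytosolic ribosomal protein: symbols that begin with Rpl or Rps followed by a digit, together with Rpsa, Rplp0, Rplp1 and Rplp2, without pseudogenes and without the S6 kinases. The rule took 86 of 21963 gene entries. Of these, 77 encode standard subunits (46 of the large and 31 of the small subunit), and 9 are paralogs or other matches to the name (Rpl3l, Rpl7l1, Rpl10l, Rpl22l1, Rpl36al, Rpl39l, Rps27l, Rps27rt and Rps19bp1). The names followed by L mark paralogs of a standard protein, whereas Rps19bp1 encodes a protein that binds Rps19 and is not a subunit.

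RNA was measured by sequencing in 20 libraries of bone marrow-derived macrophages (BMDMs), cells grown from mouse bone marrow with medium conditioned by L929 cells. The mice were 15 to 25 weeks old. There were 4 libraries of untreated WT macrophages, 5 of WT macrophages given zymosan for 3 h, 4 of WT macrophages given zymosan for 3 h and loaded with 10 µM BAPTA-AM, 4 of untreated Mcu-/- macrophages and 3 of Mcu-/- macrophages given zymosan for 3 h. Zymosan is a yeast cell wall preparation that is sensed by TLR2 and dectin-1. BAPTA-AM is a Ca2+ chelator that enters cells. The Mcu-/- macrophages came from floxed Mcu mice with Cx3cr1-cre, so that the gene for the pore of the mitochondrial Ca2+ uniporter was deleted by a recombinase expressed in myeloid cells. Whether the WT mice carried a Cre or a floxed allele is not given in the sources used here. The labels count biological replicates but do not tie them to separate animals, so the p-values measure the spread between these libraries.

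The total count was 14.4 to 24 M per library, and 84 of the 86 genes were among the 11707 genes that passed the filter on low counts. Rpl3l had 0 to 9 counts per library and Rpl10l 0 to 2, and neither was tested. Levels are CPM (reads of a gene per 1 M reads) of a library size scaled by the TMM factors of edgeR. Changes are log2 fold changes ± SE from edgeR's quasi-likelihood fit of all 20 libraries, and calls were made at a Benjamini-Hochberg adjusted p under 0.05 over all tested genes. Mcu itself lay between 6.10 and 9.55 CPM in WT libraries and between 2.63 and 4.05 in Mcu-/- libraries, so transcript was still counted in the knockout (untreated log2 fold change -1.14 ± 0.13, adjusted p = 0.000163). The macrophage markers (7 of 7 tested, among them Adgre1, Csf1r and Cd68) summed to 8360 to 15300 CPM. Of the 8 neutrophil markers listed, Ly6g, Camp, Mpo and Elane had at most 3 counts in any library. So did the 3 T cell markers Cd3e, Cd3d and Cd3g, and Flt3 and Siglech of the 4 dendritic cell markers. Over all libraries the neutrophil markers summed to 0.159 to 5.71 CPM and the dendritic cell markers to 0.597 to 11.5 CPM. B cell markers summed to 12.4 to 55.4 CPM and stromal markers to 1.02 to 30.2 CPM. One library stood apart before any comparison. Untreated Mcu-/- replicate 4 was separated from the other libraries of its group by a large gap (Dixon's criterion) in 26.9% of the tested genes and in 29 of the 84 ribosomal protein genes, whereas none of the other 16 libraries of the groups of 4 or 5 was separated in more than 1.83% of the genes (the group of 3 was not examined in this way). Results that rest on this library are given with and without it.

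The start sites of the genes show the feature that the family is known for. RefSeq promoter windows on GRCm38.p6 (250 bases before to 50 after the start) were at hand for 66 of the 86 genes, 57 of them standard subunit genes. A run of 8 or more C or T between 20 bases before and 30 bases after the start was found in 32 of these 57 genes (56.1%) and in 21.8% of the 9233 tested genes with a window. Searched over the whole window on both strands, CTTTCC occurred in 50.9% of the standard subunit genes against 30.5% of the tested genes, CCGGAAG, a binding sequence of ETS factors, in 42.1% against 21.0%, GGGCGG in 61.4% against 68.8%, CCAAT in 31.6% against 43.1%, TATAAA in 10.5% against 8.6%, and the E-box CACGTG in 10.5% against 12%. CTTTCC can lie within a pyrimidine run. The 30 bases around the annotated start (15 on each side) are shown for 12 genes on which the results below turn, with the longest stretch of C and T in capitals:

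Rpl15 (chr14:18270972-18271001, minus strand): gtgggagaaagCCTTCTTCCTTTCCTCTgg

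Rps6 (chr4:86857353-86857382, minus strand): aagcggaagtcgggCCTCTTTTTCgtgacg

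Rps27 (chr3:90213634-90213663, minus strand): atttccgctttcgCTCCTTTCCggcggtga

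Rps9 (chr7:3704026-3704055, plus strand): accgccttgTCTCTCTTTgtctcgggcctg

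Rpl22l1 (chr3:28805493-28805522, plus strand): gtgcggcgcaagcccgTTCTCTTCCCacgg

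Rpl34 (chr3:130730384-130730413, minus strand): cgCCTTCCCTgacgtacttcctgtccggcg

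Rpl10a (chr17:28328456-28328485, plus strand): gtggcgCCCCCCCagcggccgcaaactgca

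Rps21 (chr2:180257364-180257393, plus strand): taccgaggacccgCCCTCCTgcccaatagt

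Rplp0 (chr5:115559452-115559481, plus strand): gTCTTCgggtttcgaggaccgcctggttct

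Rps28 (chr17:33824548-33824577, minus strand): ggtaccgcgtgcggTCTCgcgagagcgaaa

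Rpl22 (chr4:152325711-152325740, plus strand): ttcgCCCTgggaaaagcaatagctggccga

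Rpl24 (chr16:55966260-55966289, plus strand): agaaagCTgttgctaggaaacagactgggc

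The first 5 windows carry a pyrimidine stretch of 9 to 17 bases across or next to the annotated start, that of Rpl34 has 8 bases before the start, those of Rpl10a, Rps21, Rplp0, Rps28 and Rpl22 have no stretch longer than 4 to 7 bases, and the window of Rpl24 has no stretch longer than 2 bases. With zymosan in WT macrophages the median log2 fold change was 0.25 in the 32 genes with a run and 0.24 in the 25 without, and in Mcu-/- macrophages it was 0.14 and 0.17. Between genotypes with zymosan the medians were -0.16 and -0.14, and for the difference between the zymosan responses of the genotypes -0.10 and -0.06. These values are a description of the 57 genes and were not tested.

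Per kilobase of one annotated transcript, the highest levels in untreated WT macrophages were those of Rplp1 (1621 CPM), Rpl10 (1308 CPM) and Rpl32 (1173 CPM). Of the 86 genes, 6 overlap another annotated gene on the same strand and 23 one on the opposite strand, and the counts do not show how such reads were divided.

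Ribosomal protein mRNA made up a large but shrinking part of the library. The 86 genes together took 5.31%, 5.01%, 4.90% and 5.28% of all counts in the 4 untreated WT libraries, and 4.32%, 4.28%, 4.24%, 4.38% and 4.41% in the 5 WT libraries with zymosan. With BAPTA-AM added the share was 4.49% ± 0.06 (SD, n = 4). In untreated Mcu-/- macrophages it was 5.04%, 5.08% and 5.06% in replicates 1 to 3 and 4.07% in replicate 4. In Mcu-/- macrophages with zymosan it was 3.66% ± 0.10 (SD, n = 3), below each of the other libraries. The large subunit accounted for 2.92% ± 0.10 (SD, n = 4) and the small subunit for 2.15% ± 0.10 (SD, n = 4) of the counts in untreated WT macrophages. Untreated and stimulated WT libraries did not overlap in the share. In bulk RNA, fewer cells of a type and less RNA per cell cannot be told apart.

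The share and the scaled level moved in opposite directions with zymosan. The 20 most abundant genes of a library took 12.3% to 12.6% of the counts in untreated WT libraries and 13.1% to 13.3% with zymosan, and TMM factors were 1.22 to 1.24 in untreated WT libraries and 0.865 to 0.881 in WT libraries with zymosan. The median log2(CPM + 1) of the 84 tested genes was 8.85 to 8.96 in untreated WT libraries and 9.12 to 9.18 with zymosan, while their share of the counts was lower. The direction of a zymosan response depends on the scaling, and each response is also given relative to the median of all tested genes.

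**Figure D1:**
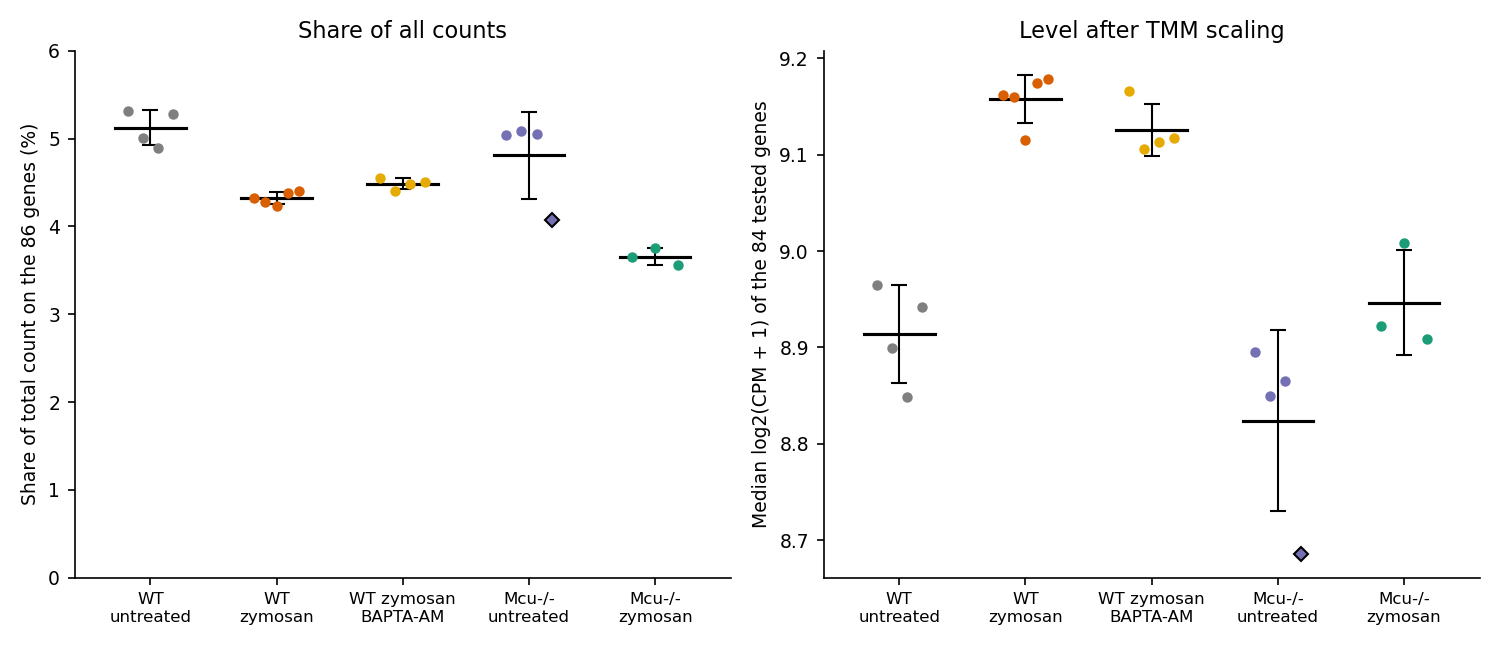
Share of the total count on the 86 ribosomal protein genes (left, percent) and median log2(CPM + 1) of the 84 tested genes after TMM scaling (right, axis not starting at 0). Each point is a library, lines and bars are mean ± SD, and the outlined diamond is untreated Mcu-/- replicate 4. With zymosan the share was lower (4.24 to 4.41% against 4.90 to 5.31% in WT) while the TMM-scaled level was higher, and with zymosan both were lower in Mcu-/- macrophages.

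With zymosan in WT macrophages, the ribosomal protein genes moved upwards as a block relative to other genes on the TMM scale. Of the 84 tested genes, 75 were called higher and 1 lower, against 32.4% of all tested genes called higher and 36.8% called lower. The changes were small. Their median log2 fold change was 0.24, with quartiles of 0.20 and 0.27, beside a median of -0.04 over all tested genes. Scaled by library totals instead, 0 of the 84 genes were higher and 80 lower, with a median of -0.25 where that of all genes was -0.54 (15.7% of all genes called higher and 68.5% lower). Relative to the median of all genes the difference was 0.29 under TMM, DESeq2's size factors and library totals, and 82 of the 84 genes lay above that median. The standard large and small subunit genes had medians of 0.25 and 0.25.

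The largest rises on the TMM scale were in the large subunit genes Rpl24, Rpl15 and Rpl23. Rpl24, whose protein forms a bridge between the subunits, had 122, 119, 112 and 122 CPM in the untreated WT libraries and 159, 157, 155, 162 and 155 with zymosan. All 5 stimulated libraries lay above the 4 untreated ones (log2 fold change 0.41 ± 0.05, adjusted p = 1.71e-07, exact two-sided permutation p = 0.00794, the smallest possible with 4 against 5). Rpl15 rose by 0.36 ± 0.04 (adjusted p = 1.15e-07), and Rpl23, whose protein can bind and inhibit Mdm2, by 0.36 ± 0.04 (adjusted p = 8.88e-08). With library totals, Rpl24 changed by -0.09, Rpl15 by -0.13 and Rpl23 by -0.13. The annotation places Rpl24 within the overlapping entry Gm28037 on the same strand, and how reads were divided between them was not tested.

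The 11 genes of the family chosen for roles beyond a place in the ribosome were all called higher in WT macrophages with zymosan on the TMM scale. So were 75 of the 84 tested members (89.3%) and 32.4% of all tested genes. Rplp0, Rplp1 and Rplp2 encode the stalk that recruits translation factors, and they rose by 0.26 ± 0.05, 0.25 ± 0.04 and 0.25 ± 0.04 (adjusted p = 0.000143, 6.51e-06 and 4.94e-06). Rpsa, which encodes a small subunit protein also known as a laminin receptor, went from 1040 to 1079 CPM untreated to 1252 to 1293 CPM with zymosan (0.25 ± 0.04, adjusted p = 1.25e-05). Rps6, the substrate of the S6 kinases, went from 597 to 639 CPM to 725 to 764 CPM (0.28 ± 0.05, adjusted p = 6.66e-05). The groups did not overlap in either gene. Rpl5 and Rpl11, whose proteins form with 5S RNA the particle that restrains Mdm2, rose by 0.23 ± 0.06 and 0.18 ± 0.04. Rpl13a, whose protein is known to leave the ribosome and silence inflammatory transcripts in interferon-treated myeloid cells, rose by 0.16 ± 0.06 (adjusted p = 0.0162), a call that was lost without untreated WT replicate 3. Rps3, whose protein can join NF-κB in the nucleus, rose by 0.16 ± 0.04. Rps19, a gene mutated in Diamond-Blackfan anaemia, rose by 0.18 ± 0.05. Rps27a, which encodes a fusion of ubiquitin to a ribosomal protein, rose by 0.19 ± 0.07 (adjusted p = 0.0244) and lost its call without untreated WT replicate 2 or 3. With library totals, each of the 11 changed downwards, by -0.33 to -0.21.

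**Figure D2:**
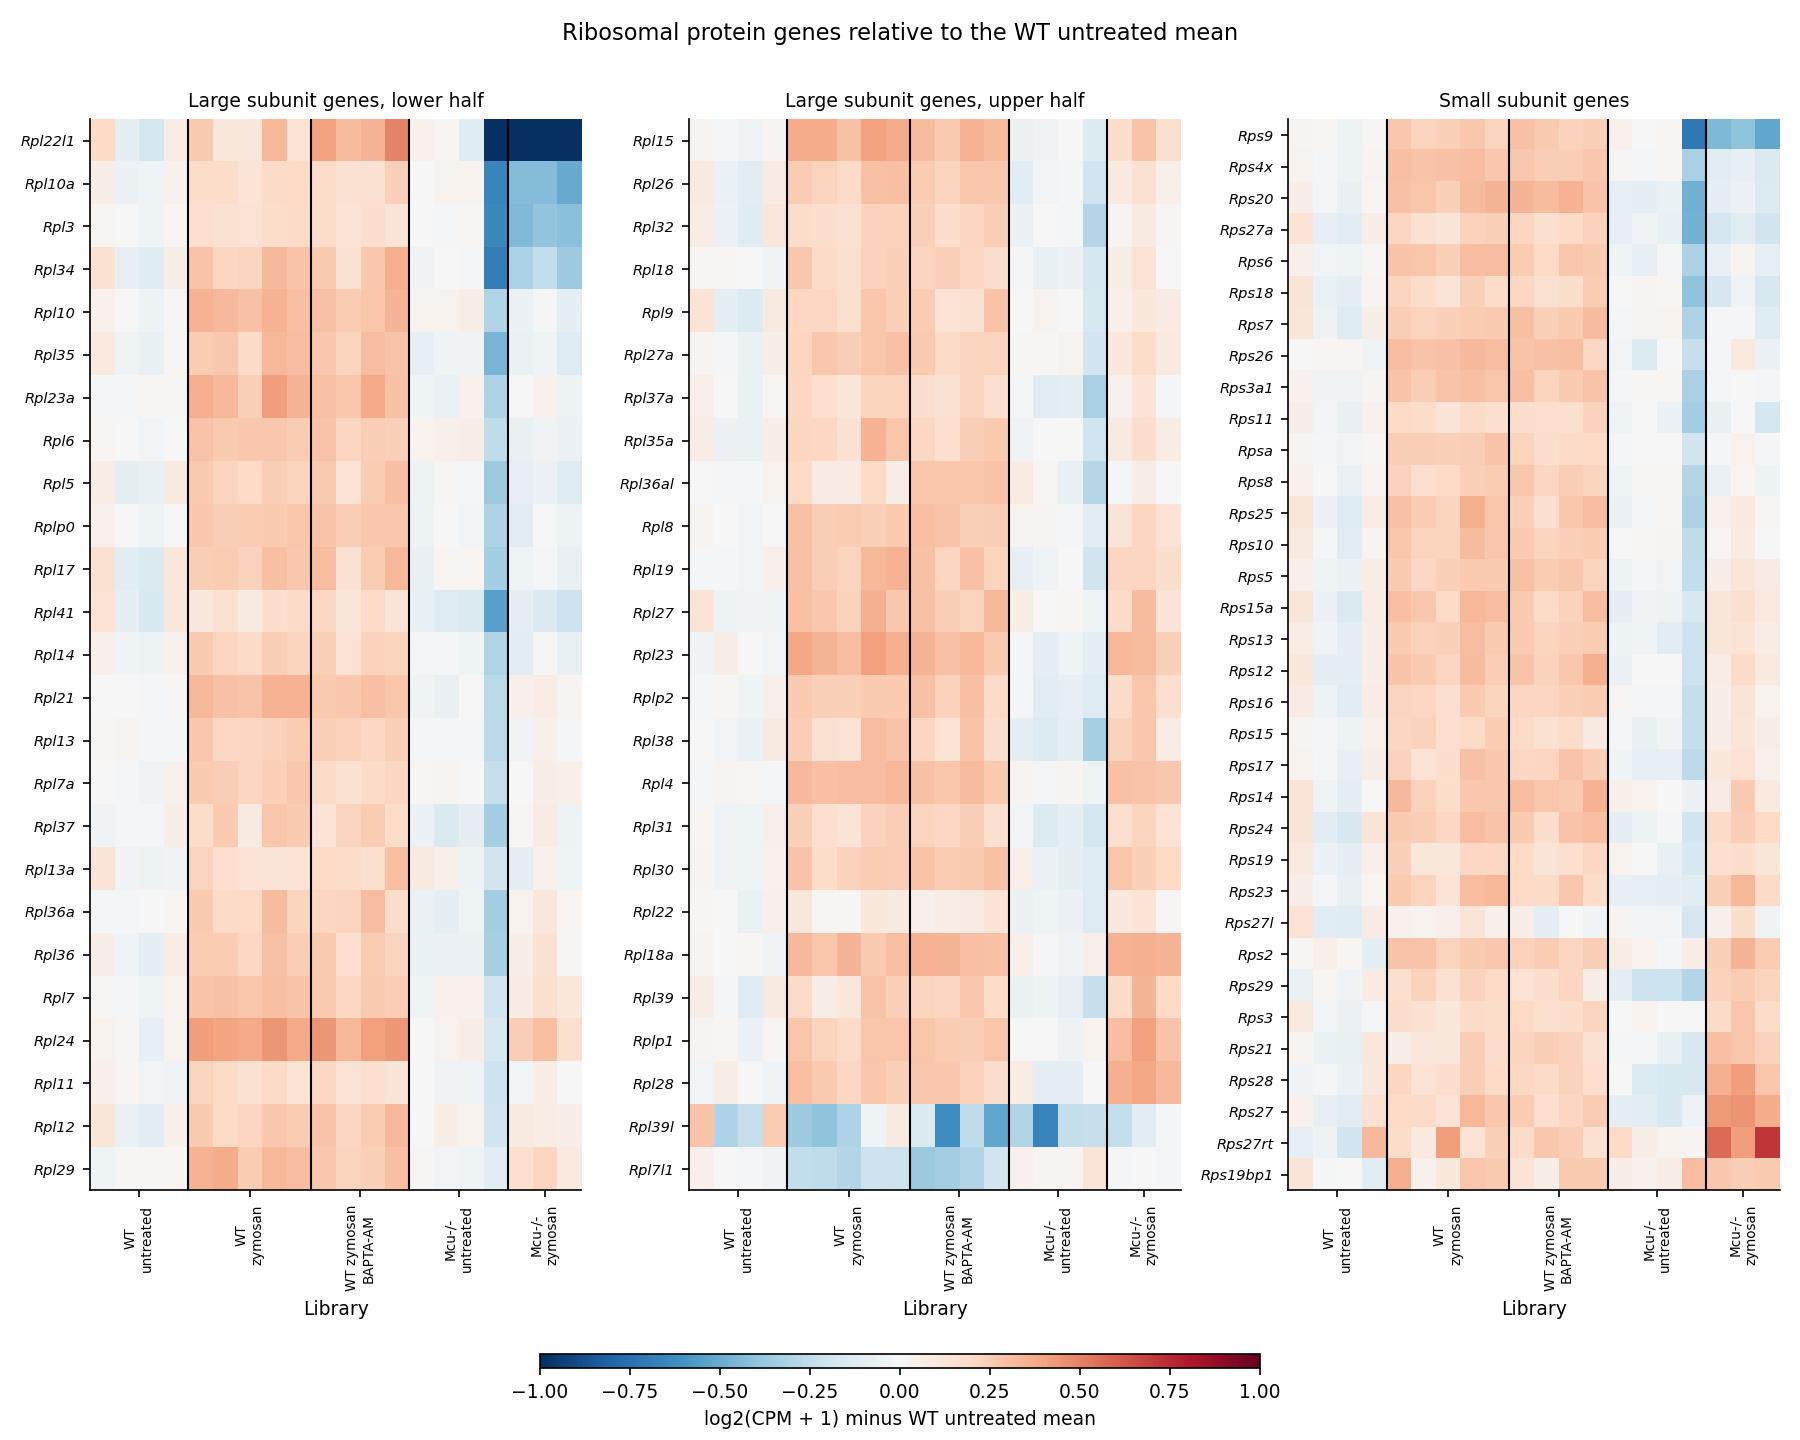
log2(CPM + 1) of the 84 tested genes in each of the 20 libraries (columns, grouped by condition) minus the mean of the untreated WT libraries, with colours limited to ±1 and genes ordered within each panel by the difference between genotypes with zymosan. On the TMM scale nearly all genes were above the untreated WT mean in WT macrophages with zymosan, a direction that library totals reverse. In Mcu-/- macrophages Rpl22l1, Rpl10a, Rpl3, Rpl34 and Rps9 were below it with zymosan, and untreated replicate 4 had low values in the same genes.

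Between genotypes, the family was lower in Mcu-/- than in WT macrophages after zymosan. Of the 84 genes, 53 were called lower and 6 higher in Mcu-/- macrophages, against 30.3% of all tested genes lower and 31.8% higher. The median log2 fold change was -0.15 (quartiles -0.28 and -0.04), beside 0.02 over all tested genes. With library totals 59 were lower and 3 higher (33.6% and 28.8% of all genes). Of the standard subunit genes, 31 of 46 in the large subunit and 21 of 31 in the small subunit were lower. The quartiles were further apart than those of the response in WT macrophages.

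The gene with the largest difference was Rpl22l1, the paralog that can take the place of Rpl22 in the large subunit. It had 80.5, 72.0, 72.7, 84.8 and 74.0 CPM in WT libraries with zymosan and 25.3, 27.6 and 25.5 CPM in Mcu-/- libraries with zymosan. The groups did not overlap (log2 fold change -1.56 ± 0.26, adjusted p = 6.76e-05, exact two-sided permutation p = 0.0179, the smallest possible with 3 against 5). Its counterpart Rpl22 had 264 to 283 CPM in WT and 264 to 289 CPM in Mcu-/- libraries (0.02 ± 0.04, adjusted p = 0.708). Rpl22 protein is known to repress the mRNA of Rpl22l1. Per kilobase of one annotated transcript, Rpl22l1 was at 122 CPM and Rpl22 at 552 CPM in untreated WT macrophages, and at 47.3 and 587 CPM in Mcu-/- macrophages with zymosan. Rpl22l1 overlaps the entry Gm33051 on the other strand, and whether counting used strand is not given in the sources used here.

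A further 4 genes were lower by more than 0.5 on the log2 scale. Rps9, a protein of the small subunit, had 1017, 981, 993, 1014 and 981 CPM in WT and 618, 638 and 586 CPM in Mcu-/- libraries with zymosan (-0.70 ± 0.11, adjusted p = 4.55e-05). Rpl10a had 493, 491, 476, 496 and 498 CPM in WT and 320, 320 and 304 CPM in Mcu-/- libraries (-0.64 ± 0.11, adjusted p = 6.19e-05). In neither gene did the genotypes overlap. Rpl3, whose protein reaches the peptidyl transferase centre, was lower by a log2 fold change of -0.59 ± 0.10 (adjusted p = 6.88e-05), and Rpl34 by one of -0.58 ± 0.11 (adjusted p = 0.000301). Next in order came Rps4x at -0.40 ± 0.06, Rps20 at -0.39 and Rpl10 at -0.38 ± 0.06, and these neighbours differed by less than their standard errors.

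Of the 11 genes with further roles, 7 were lower in Mcu-/- macrophages with zymosan, beside 53 of the 84 tested members (63.1%) and 30.3% of all tested genes. The count is near the share of the family and is not read as a trait of these 11 genes. The 7 were Rplp0 (-0.31 ± 0.06), Rpsa (-0.25 ± 0.04), Rps6 (-0.33 ± 0.06), Rpl5 (-0.32 ± 0.07), Rpl11 (-0.16 ± 0.05), Rpl13a (-0.19 ± 0.06) and Rps27a (-0.35 ± 0.08). The other 4 were not called: Rplp1 at 0.09 ± 0.04 (adjusted p = 0.071), Rplp2 at -0.04 ± 0.04, Rps3 at 0.05 ± 0.04 and Rps19 at -0.02 ± 0.05. Rplp1 had 1002, 1075 and 986 CPM in Mcu-/- libraries and 927 to 980 CPM in WT libraries, without overlap, and without untreated Mcu-/- replicate 4 it was called higher (0.09 ± 0.03, adjusted p = 0.00829).

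The 6 genes higher in Mcu-/- macrophages with zymosan were Rps27, Rps28, Rps21, Rpl28, Rpl7l1 and Rps27rt. Rps27 had 299, 296, 286, 327 and 314 CPM in WT and 350, 354 and 336 CPM in Mcu-/- libraries (0.19 ± 0.06, adjusted p = 0.00721). Rps28 had 287 to 308 CPM in WT and 331, 345 and 314 CPM in Mcu-/- libraries (0.15 ± 0.05, adjusted p = 0.00884), and lost its call without the Mcu-/- zymosan library of column 4. Rps21, Rps27 and Rps28 encode small proteins of the small subunit and rose by 0.13 to 0.19. Rpl28 was higher by 0.10 ± 0.04 (adjusted p = 0.0484), next to the threshold. Rps27rt, a retrogene copy of Rps27 that may share its reads, was at 2.84 to 3.77 CPM in WT and 3.79 to 4.87 CPM in Mcu-/- libraries. Without the Mcu-/- zymosan library of column 4 or of column 5, 3 genes in place of 6 were called higher.

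Other lists moved beside this difference. The 7 macrophage markers moved in both directions. Their sum was 15000 to 15300 CPM in WT libraries with zymosan and 9080 to 9340 CPM in Mcu-/- libraries with zymosan, with Lyz2 (log2 fold change -1.34), Adgre1 (-0.79) and Itgam (-1.66) lower, Cd68 (1.91), Fcgr1 (1.44) and Csf1r (0.94) higher, and Mertk (0.33) not called. The 4 stromal markers (Col1a1, Col3a1, Dcn and Pdgfrb, none at 3 counts or fewer throughout) summed to 3.25 to 5.30 CPM and to 23.8 to 30.2 CPM, and the 4 B cell markers to 30.4 to 36.7 CPM and to 12.4 to 13.3 CPM. The neutrophil markers (3 of 8 tested) summed to 3.78 to 5.71 CPM and to 0.547 to 0.765 CPM, and the dendritic cell markers (2 of 4 tested) to 9.05 to 9.65 CPM and to 10.4 to 11.5 CPM. The part of these cell types in the difference was not tested.

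**Figure D3:**
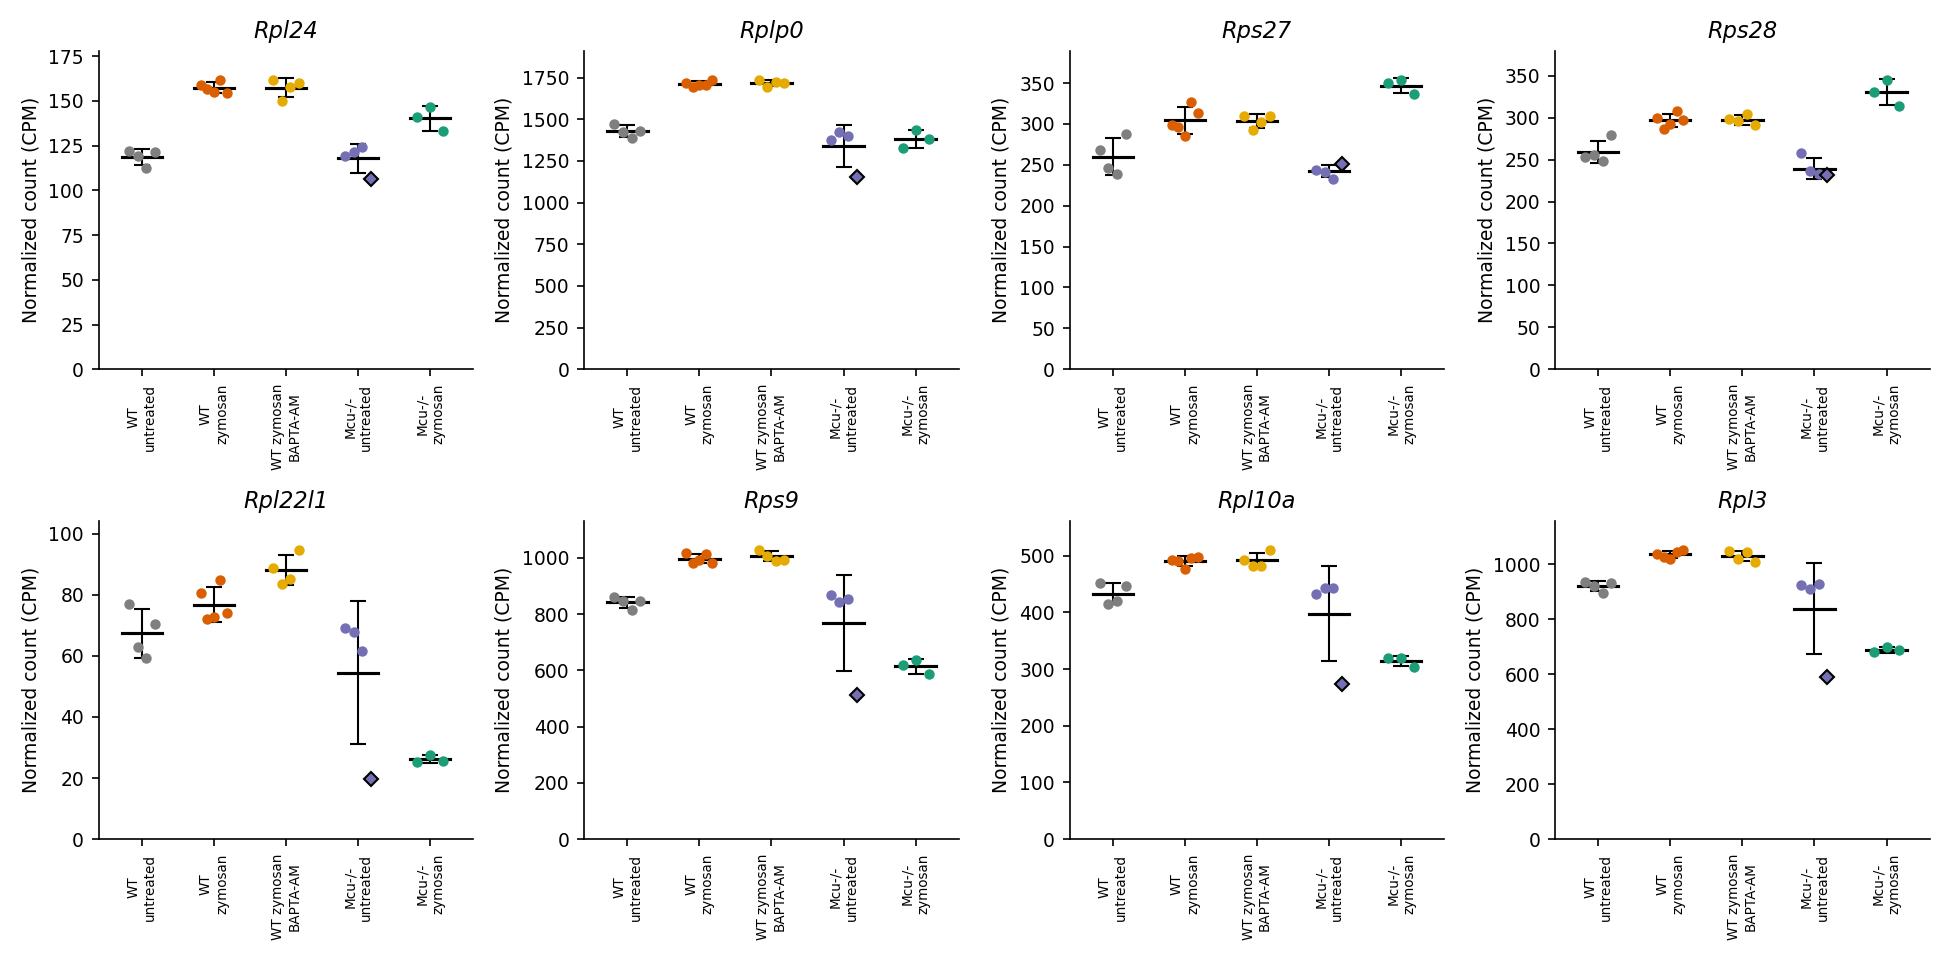
CPM (TMM scale) of 8 ribosomal protein genes in each library by group, with mean ± SD and axes from 0. Rpl24 and Rplp0 were higher with zymosan in WT macrophages on this scale, a direction that library totals reverse. Rps27 and Rps28 were highest in Mcu-/- macrophages with zymosan. Rpl22l1, Rps9, Rpl10a and Rpl3 were low in all 3 Mcu-/- zymosan libraries and in untreated Mcu-/- replicate 4 (outlined diamond).

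Within Mcu-/- macrophages, the zymosan response of the family had more genes without a call. Of the 84 genes, 45 were called higher and 4 lower, against 34.3% of all tested genes higher and 39.4% lower, with a median of 0.15 beside -0.06 for all genes. With the untreated and stimulated Mcu-/- libraries fitted alone, 29 were higher and 0 lower, without a count over all tested genes beside them. Without untreated Mcu-/- replicate 4, 46 were higher and 10 lower (39.2% and 42.4% of all genes) and the median was 0.12. With library totals 0 were higher and 79 lower (16.0% and 68.3% of all genes), and the median was again higher than that of all genes, by 0.21. Of the 75 genes that rose in WT macrophages, 43 also rose in Mcu-/- macrophages, 1 (Rps9) fell, and 31 were not called. The 43 are 57.3% of the 75, and of all 3790 tested genes that rose in WT macrophages 78.5% also rose in Mcu-/- macrophages.

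The largest rises among genes above 10 CPM were in short genes of the small subunit. Rps27 had 244, 241, 233 and 251 CPM in untreated and 350, 354 and 336 CPM in stimulated Mcu-/- macrophages (0.52 ± 0.06, adjusted p = 2.51e-07). Rps28 rose by 0.46 ± 0.05 (adjusted p = 1.04e-07) and Rps29, which encodes a zinc-binding protein of the small subunit, by 0.44 ± 0.05 (adjusted p = 2.80e-07). In all 3 genes the groups did not overlap, replicate 4 included. With library totals the 3 values were -0.0040, -0.06 and -0.09. The 4 genes called lower were Rpl22l1 (-1.06 ± 0.27, adjusted p = 0.00155), Rpl10a (-0.34 ± 0.11, adjusted p = 0.0101), Rps9 (-0.33 ± 0.12, adjusted p = 0.0176) and Rpl3 (-0.28 ± 0.10, adjusted p = 0.0189). In each of these 4, replicate 4 lay below the 3 stimulated libraries while replicates 1 to 3 lay above them, and without replicate 4 all 4 remained called, whereas none was called with the Mcu-/- libraries fitted alone. Without replicate 1, 2 or 3 of the untreated Mcu-/- group, 2 genes in place of 4 were called lower, and Rps9 was among those that lost their call.

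The difference between the 2 responses was tested directly as an interaction, and a part of preparation or culture in it was not tested. It was called for 5 genes with a higher and 14 with a lower response in Mcu-/- macrophages (15.2% and 20% of all tested genes). The 5 were Rps27 (0.29 ± 0.08, adjusted p = 0.00814), Rps28 (0.27 ± 0.07, adjusted p = 0.00473), Rps29 (0.24 ± 0.07), Rps21 (0.20 ± 0.07) and Rpl7l1 (0.17 ± 0.06). The 14 ran from Rpl22l1 (-1.25 ± 0.35, adjusted p = 0.00978), Rps9 (-0.57 ± 0.16, adjusted p = 0.00876) and Rpl10a (-0.52 ± 0.15, adjusted p = 0.0111) to Rpl21 (-0.18). Rplp0, Rpsa and Rps6 were among them, at -0.21, -0.20 and -0.21. Without untreated Mcu-/- replicate 4 the counts were 7 and 47 (31.0% and 29.3% of all genes), and all 19 genes called with it were among them. The 14 became 8 or 9 without untreated Mcu-/- replicate 1 or 3, Mcu-/- zymosan column 3 or 5, or untreated WT replicate 4, and the 5 became 3 without untreated Mcu-/- replicate 3, Mcu-/- zymosan column 4 or untreated WT replicate 1. Across the 84 genes the WT and Mcu-/- responses had a Pearson correlation of -0.04 and a Spearman correlation of 0.14, values that describe genes sharing a library and not replicates.

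**Figure D4:**
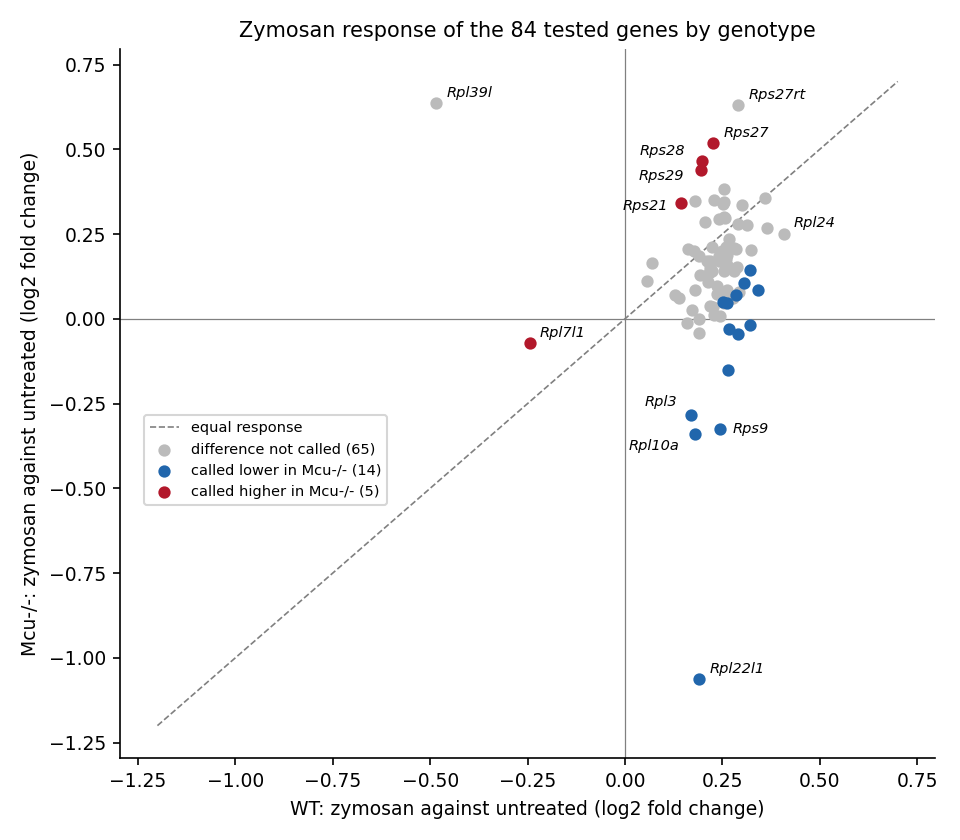
log2 fold change with zymosan (TMM scale) in WT (horizontal) and Mcu-/- macrophages (vertical) for the 84 tested genes, coloured by the test of the difference between the responses. WT values had quartiles of 0.20 and 0.27 and a range of -0.49 to 0.41. Mcu-/- values had quartiles of 0.06 and 0.24 and reached from -1.06 (Rpl22l1) to 0.64 (Rpl39l, 4 to 30 counts per library, not called). Scaled by library totals, both axes shift downwards.

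Transcript length and snoRNAs are features that the choice of genes did not use. Over the 77 standard subunit genes, log2 transcript length and the log2 fold change with zymosan had a Pearson correlation of 0.32 in WT and -0.20 in Mcu-/- macrophages. For the difference between genotypes with zymosan it was -0.22. Over 11592 tested genes the same 3 correlations were -0.04, 0.01 and 0.09. Among the 26 shortest genes (345 to 637 bases) 14 were lower in Mcu-/- macrophages with zymosan and 3 higher, and among the next 25 (661 to 964 bases) 20 were lower and 0 higher. The 26 longest had 18 lower and 1 higher. Of the 30 genes that hold a snoRNA in an intron 22 were lower (median -0.20), and of the other 47 genes 30 were lower (median -0.15). Of all tested genes, of any length, 30.3% were lower and 31.8% higher in this comparison. All values of this paragraph are descriptions over genes that share libraries.

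Untreated Mcu-/- replicate 4 departed from its group in the same genes that separated the genotypes after zymosan. Rpl22l1 was at 69.1, 67.9 and 61.5 CPM in replicates 1 to 3 and at 19.6 CPM in replicate 4. Rps9 was at 866, 843 and 853 CPM in replicates 1 to 3 and at 513 CPM in replicate 4, and Rpl34 at 323, 332 and 326 CPM and at 205 CPM. These replicate 4 values lay below those of the 3 stimulated Mcu-/- libraries. Of the 84 genes, 74 were lower in replicate 4 than in each of replicates 1 to 3 (4731 of all 11707 tested genes), and the median shift was -0.20 on the log2 scale beside 0.03 for all genes. The 53 genes called lower between genotypes after zymosan were all among the 74, and 2 of the 6 called higher lay above replicates 1 to 3. The shift in replicate 4 and the difference between genotypes with zymosan, which share no library, had a Pearson correlation of 0.93 and a Spearman correlation of 0.89 over the 84 genes (0.88 and 0.89 without Rpl22l1). Over all 11707 tested genes the Pearson correlation was 0.72. For replicates 1, 2 and 3, each set against the other 2 of these, the Pearson correlation over the 84 genes was 0.28, -0.28 and -0.01. The same library had 8360 CPM of macrophage markers, 16.6 CPM of stromal markers and 18.1 CPM of B cell markers, against 13100 to 13500, 1.41 to 2.40 and 53.1 to 55.4 CPM in untreated WT libraries. The macrophage markers of replicate 4 likewise went both ways: Lyz2 (2823 CPM), Adgre1 (2462 CPM) and Itgam (238 CPM) were the lowest of their group, and Cd68 (971 CPM), Fcgr1 (518 CPM), Csf1r (1270 CPM) and Mertk (76.0 CPM) the highest. Its label states an untreated Mcu-/- culture, and its Mcu level was 4.05 CPM. Whether the library was prepared or cultured differently is not given in the sources used here.

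**Figure D5:**
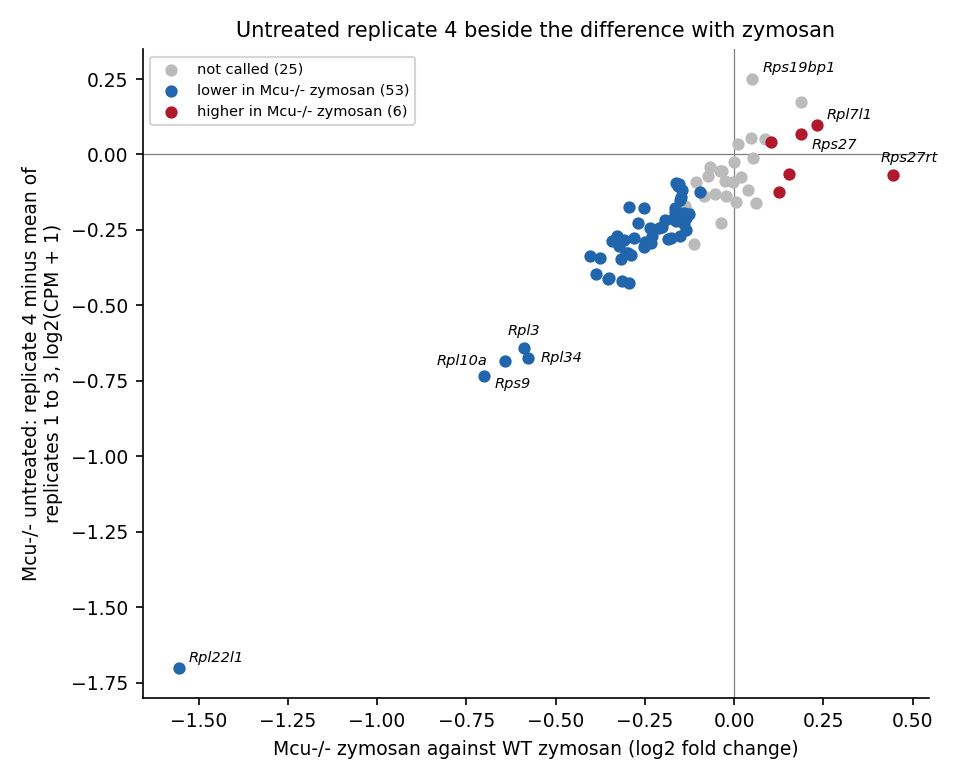
Difference between Mcu-/- and WT macrophages with zymosan (horizontal, log2 fold change) and the shift of untreated Mcu-/- replicate 4 from the mean of replicates 1 to 3 (vertical, log2(CPM + 1)) for the 84 tested genes. The Pearson correlation was 0.93. All 53 genes called lower with zymosan lie below 0 on the vertical axis, as do some called higher, Rps21 and Rps28 among them.

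Without stimulation, no ribosomal protein gene was called between genotypes by edgeR (0 higher and 0 lower, against 0.128% and 0.222% of all tested genes). At an unadjusted p under 0.05 there were 0 higher and 15 lower, a count that was not made over all tested genes. DESeq2 called 0 higher and 1 lower, against 57 higher and 55 lower among all tested genes. The median log2 fold change was -0.08 with all libraries and -0.02 without replicate 4. Without that library 0 genes were higher and 1 lower, against 1.53% and 1.83% of all tested genes. The 1 gene was Rps29, with 351, 375, 359 and 391 CPM in WT and 344, 318, 318 and 301 CPM in Mcu-/- libraries. Replicates 1 to 3 alone already lay below the WT libraries in this gene, by a log2 fold change of -0.17. The Mcu-/- values of Rps27 (233 to 251 CPM) overlapped those of WT (239 to 288 CPM).

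Adding BAPTA-AM to zymosan changed no ribosomal protein gene past the threshold. No gene was called by edgeR (0 higher and 0 lower, against 6.43% and 6.33% of all tested genes). At an unadjusted p under 0.05, 1 was higher and 0 lower, a count that was not made over all tested genes. DESeq2 called 0, against 663 higher and 993 lower among all tested genes. The median log2 fold change was -0.01, with quartiles of -0.03 and 0.01. For Rplp0, 1694 to 1737 CPM with BAPTA-AM stood beside 1694 to 1734 CPM without it (0.01 ± 0.05). Without untreated Mcu-/- replicate 4, which shares the estimate of spread, Rpl22l1 and Rpl36al were called higher and 0 genes lower (15.3% and 16.5% of all genes). Rpl36al had 128, 128, 128 and 128 CPM with BAPTA-AM and 110 to 121 CPM without it (0.15 ± 0.06, adjusted p = 0.0792 with all libraries). It was the 1 member in which all libraries with BAPTA-AM lay above those without (11.1% of all tested genes). In 2 members all lay below (13.2% of all tested genes), and neither was called. These were Rpl7 (726 to 757 against 764 to 777 CPM) and Rpsa (1199 to 1236 against 1252 to 1293 CPM). Rpl22l1 had 83.7 to 94.8 CPM with and 72.0 to 84.8 CPM without BAPTA-AM (0.20 ± 0.22, adjusted p = 0.658 with all libraries), with an overlap at the edge.

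The paralogs were expressed below their standard counterparts, and few of them were called together with these. Per kilobase of one annotated transcript in untreated WT macrophages, Rpl7l1 was at 42.6 CPM beside 542 CPM for Rpl7, Rps27l at 173 beside 754 for Rps27, Rpl36al at 200 beside 458 for Rpl36a, and Rpl39l at 1.13 beside 388 for Rpl39. Rpl7l1, which takes part in assembly of the large subunit, was the 1 gene called lower with zymosan in WT macrophages on the TMM scale (-0.25 ± 0.04, adjusted p = 1.12e-05). It went from 115, 111, 110 and 108 CPM to 93.4, 92.8, 90.4, 95.9 and 95.6 CPM. With library totals, 80 of the 84 tested genes were called lower and 0 higher (68.5% and 15.7% of all tested genes). Rpl7l1 was at 109 to 111 CPM in Mcu-/- macrophages with zymosan, above all WT libraries with zymosan (0.23 ± 0.04, adjusted p = 0.00011), whereas Rpl7 was lower there (-0.17 ± 0.05, adjusted p = 0.00505). Rps27l, a p53 target, was not called in any comparison (0.06 ± 0.06 with zymosan in WT, 0.01 ± 0.06 between genotypes with zymosan), while Rps27 was called in both. Rpl36al was called higher with zymosan in WT macrophages on the TMM scale (0.13 ± 0.06, adjusted p = 0.0482), a call lost on leaving out any of 15 libraries. Rps19bp1 was at 12.4 to 17.6 CPM throughout, and its rise in WT macrophages on that scale (0.22 ± 0.08, adjusted p = 0.0197) was lost without untreated WT replicate 4 or WT zymosan replicate 1. With library totals the values of Rpl36al and Rps19bp1 turned downwards. Rpl39l had 4 to 30 counts per library and was not called.

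Further genes for ribosomal proteins have names outside the rule. Fau, which encodes a fusion of a ubiquitin-like protein to a ribosomal protein, and Rack1, a scaffold on the small subunit, both rose with zymosan in WT macrophages on the TMM scale (0.20 ± 0.04 and 0.23 ± 0.06), and Rack1 was lower in Mcu-/- macrophages with zymosan (-0.31 ± 0.06, adjusted p = 0.000396). Of 19 translation factors and other genes with TOP mRNAs, 17 rose and 1 fell with zymosan in WT macrophages on the TMM scale (32.4% and 36.8% of all tested genes). Their median log2 fold change was 0.27, beside -0.04 over all tested genes. Library totals moved the median of all tested genes to -0.54, and the calls of this list were not counted with them. With zymosan 15 of the 19 were lower and 0 higher in Mcu-/- macrophages when set against WT (30.3% and 31.8% of all genes). In the direct test of the responses, 9 of the 19 were lower in Mcu-/- macrophages and 0 higher (20% and 15.2% of all genes), and 17 were lower without untreated Mcu-/- replicate 4. Hnrnpa1, an RNA-binding protein, had the largest rise in WT macrophages (0.69 ± 0.10, adjusted p = 3.32e-06) and the largest difference between genotypes with zymosan (-0.69 ± 0.11, adjusted p = 2.67e-05). Eif4b, a helper of the cap-binding complex, was the 1 that fell in WT macrophages on the TMM scale (-0.20 ± 0.04, adjusted p = 7.45e-05). In Mcu-/- macrophages 5 rose and 3 fell with zymosan on that scale (5 and 7 without that replicate), with a median of 0.07 beside -0.06 over all tested genes. The largest rise was that of Tpt1 (0.41 ± 0.04). With BAPTA-AM 1 of the 19 was called, Eef1g (-0.13 ± 0.04, adjusted p = 0.0389). Without untreated Mcu-/- replicate 4, Eef1g, Pabpc1 (-0.16) and Hnrnpa1 (-0.22) were called lower and Nap1l1 (0.08) higher with BAPTA-AM.

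On the TMM scale, 32.4% of all tested genes rose and 36.8% fell with zymosan in WT macrophages, and 34.3% and 39.4% in Mcu-/- macrophages. Of all tested genes, 31.8% were higher and 30.3% lower in Mcu-/- macrophages after zymosan, and 6.43% were higher and 6.33% lower with BAPTA-AM. Genes for ribosome assembly are counted beside these shares. Of 60 tested factors, 31 rose and 10 fell with zymosan in WT macrophages on that scale, from Sbds, which frees new large subunits for translation (2.04 ± 0.08, adjusted p = 2.90e-14), to Rrp1b (-1.17 ± 0.09). Their median was 0.135, beside -0.04 over all tested genes. In Mcu-/- macrophages 31 rose and 14 fell, again led by Sbds (2.31 ± 0.09) and Rrp1b (-1.29 ± 0.11), with a median of 0.16 beside -0.06. The calls were not counted with library totals. Between genotypes with zymosan, 26 were lower and 13 higher, with Ubtf, the RNA polymerase I factor, at -1.26 ± 0.12 (adjusted p = 1.88e-07) and Polr1a, the largest subunit of that polymerase, at 0.97 ± 0.10 (adjusted p = 5.80e-07). Ubtf and Polr1a also led the 15 lower and 7 higher responses in the interaction (-1.05 ± 0.17 and 0.85 ± 0.15), beside 20% and 15.2% of all tested genes. Without untreated Mcu-/- replicate 4 the counts became 26 and 12 (29.3% and 31.0% of all genes). With BAPTA-AM 12 were higher and 4 lower (20 and 4 without that replicate), led by Polr1c (0.40 ± 0.07) and Polr1e (-0.49 ± 0.12).

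Of the 15 tested regulators of TOP mRNAs, 4 rose and 6 fell with zymosan in WT macrophages on the TMM scale, beside 32.4% and 36.8% of all tested genes. Their median was -0.025, beside -0.04 over all tested genes, and the calls were not counted with library totals. Larp1 rose by 1.80 ± 0.05 (adjusted p = 2.12e-16), and Ddit4, an inhibitor of mTOR complex 1, fell by 2.35 on the log2 scale (SE 0.16, adjusted p = 1.35e-10). In Mcu-/- macrophages 4 rose and 8 fell on that scale, with Larp1 at 1.59 ± 0.06 and Ddit4 at -2.93 ± 0.21. The median there was -0.205, beside -0.06 over all tested genes. Between genotypes with zymosan, 7 were lower and 1 higher: Rps6kb2, an S6 kinase, was at -0.98 ± 0.16 (adjusted p = 4.87e-05) and Rptor, the scaffold of mTOR complex 1, at 1.04 ± 0.17 (adjusted p = 6.22e-05). The interaction called 4 lower and 1 higher (20% and 15.2% of all tested genes), again with Rps6kb2 (-0.84 ± 0.21) and Rptor (0.68 ± 0.25) at the ends. Without untreated Mcu-/- replicate 4 it called 7 and 1 (29.3% and 31.0% of all genes). BAPTA-AM lowered Ddit4 (-1.90 ± 0.22, adjusted p = 1.25e-05) and raised Tsc1 (0.37 ± 0.06), among 3 lower and 2 higher. No gene of these 4 lists was called between untreated genotypes, with or without replicate 4. These changes are in mRNA levels, and neither translation nor kinase activity was measured.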

How the data were processed

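RNA was sequenced as paired-end reads by a commercial provider. The authors removed adaptors with cutadapt, mapped reads to mm10 with STAR, counted them per gene with HTSeq and deposited the raw counts of 20 libraries in 1 table (strand setting not given in the sources used here). Samples were grouped by their labels. Since the table numbers the Mcu-/- zymosan libraries 3 to 5 and the labels 1 to 3, their column number is given as a name. The analysis used R 4.3.3 and edgeR 4.0.16 (filterByExpr, TMM, glmQLFit with 1 coefficient per group, glmQLFTest, Benjamini-Hochberg over all genes tested) and alternatively with DESeq2 1.42.0. Exact permutation tests used log2(CPM + 1). Total counts of 14.4 to 24 M per library set the precision. Read sharing with pseudogenes of ribosomal protein genes could not be resolved from the counts, and overlaps were taken from the GENCODE M21 annotation. In simulated data for WT zymosan against WT untreated, edgeR recovered 200 of 200 genes changed by a log2 of 1 among 11482 genes. It recovered 169 of 200 changed by 0.3 among 11479, and each run gave 11 false calls. The simulated spread was fixed and below the biological coefficient of variation of the 20 real libraries (12.4%). The recovery therefore does not measure the power of the reported fit for small changes.

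Named genes were the role list, paralogs with their counterparts, per comparison the 3 largest rises and falls among called members of at least 10 CPM, untested members, the extreme called genes of the other lists, and Mcu. Others named for a count were chosen after their values were seen. Members and lists were chosen with earlier results of these data known. A list of 10 snoRNA host genes was not analysed here. The closing section gives the alternatives.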

Additional observations from a re-analysis of the deposited data

Results flagged for a closer look

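In untreated Mcu-/- replicate 4 the share of counts on the ribosomal protein genes was 4.07%, separated from the other 3 libraries of its group by more than Dixon's criterion allows. The same library stood apart in Rpl10a (273.4 CPM), Rpl22l1 (19.6 CPM), Rpl7l1 (121.6 CPM), Rplp0 (1151 CPM), Rps19bp1 (16.98 CPM), Rps27a (427.7 CPM), Rps9 (513.3 CPM) and Rpsa (934.1 CPM). Single libraries elsewhere stood apart in Rpl13a (350.6 CPM, untreated WT replicate 1), Rplp1 (775.8 CPM, untreated WT replicate 3), Rps27l (94.63 CPM, WT zymosan replicate 4), Rpsa (1293 CPM, WT zymosan replicate 5) and Rps3 (696.4 CPM, untreated Mcu-/- replicate 2). Of 104 groups of CPM values examined 13 held such a library, and in 8 it was untreated Mcu-/- replicate 4. Chance gives about 5%, but that library stood apart in 26.9% of all tested genes. The count is therefore not read as a trait of the named genes.

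The zymosan response differed between genotypes in the direct test of edgeR for 19 of the 84 genes, 5 higher and 14 lower, where 15.2% and 20% of all tested genes were called. The log2 difference, Mcu-/- minus WT, was -1.25 for Rpl22l1, -0.57 for Rps9, -0.52 for Rpl10a, -0.45 for Rpl3, -0.41 for Rpl34, -0.34 for Rpl10, -0.34 for Rps4x, -0.30 for Rpl6, -0.26 for Rpl23a, -0.21 for Rplp0, -0.21 for Rps6, -0.20 for Rpsa, -0.20 for Rps26 and -0.18 for Rpl21. It was 0.17 for Rpl7l1, 0.20 for Rps21, 0.24 for Rps29, 0.27 for Rps28 and 0.29 for Rps27.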

How the results depend on the processing

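With library totals in place of TMM, the zymosan response of the ribosomal protein genes turned downwards in WT macrophages (0 higher, 80 lower, median -0.25) and in Mcu-/- macrophages (0 higher, 79 lower, median -0.37). The other scaled values were 3 higher and a median of -0.21 between genotypes with zymosan, and 1 higher and a median of 0.055 for BAPTA-AM. In WT macrophages the values were -0.31 for Rpl11, -0.33 for Rpl13a, -0.13 for Rpl15, -0.13 for Rpl23, -0.085 for Rpl24, -0.37 for Rpl36al, -0.26 for Rpl5, -0.23 for Rplp0, -0.24 for Rplp1, -0.24 for Rplp2, -0.32 for Rps19, -0.27 for Rps19bp1, -0.30 for Rps27a, -0.44 for Rps27l, -0.33 for Rps3, -0.21 for Rps6 and -0.24 for Rpsa. In Mcu-/- macrophages they were -0.0040 for Rps27, -0.059 for Rps28 and -0.085 for Rps29. DESeq2's size factors and its Wald test each moved the WT median to 0.28. Between untreated genotypes DESeq2 called 1 gene lower, beside 55 among all tested genes. With the compared groups fitted alone, 29 genes rose and 0 fell in Mcu-/- macrophages and 2 were higher with BAPTA-AM. The shares of all tested genes in these separate fits were not counted. With a minimum of 1 count as filter, 3 interactions were higher.

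Leaving out 1 library at a time gave 68 to 80 higher genes for zymosan in WT macrophages, and 35 to 46 higher and 2 to 10 lower in Mcu-/- macrophages. Between genotypes with zymosan it gave 38 to 58 lower and 3 to 7 higher. It gave 0 to 1 lower between untreated genotypes, 0 to 2 higher with BAPTA-AM, and 3 to 7 higher and 8 to 47 lower interactions. The value of 38 came from leaving out Mcu-/- zymosan column 5, and that of 35 from column 4. The values of 80, 10, 58 and 47 and both upper values of 7 came from leaving out untreated Mcu-/- replicate 4. With that library the biological coefficient of variation was 12.4%, and without it 3.56%.

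Replicate numbers did not pair the libraries (correlations of deviations for shared numbers from -0.271 to 0.136). With the replicate number as a block over the 17 libraries that share numbers, 68 genes were higher with zymosan in WT macrophages against 73 without the block, 1 was lower and the median was 0.24. Between untreated genotypes the block gave 0 higher and 0 lower (median -0.08), and for BAPTA-AM 0 and 0 (median -0.0024). Medians relative to all genes under other scalings were added after the data were seen. Depth limits Rpl39l, Rpl3l and Rpl10l.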
